A study of Mus musculus with 24 samples.

Results

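The expression of 9 antimicrobial protein genes of surface epithelia was followed through wounding at 3 body sites of the mouse. They were chosen by name as a list of 9 of the 18368 genes in the deposited table, and all 9 are in it. The rule is a list of names and uses no measured value, but the list was drawn up with earlier results of these data known. The list holds the beta-defensins Defb1, Defb3, Defb4, Defb6 and Defb14, the whey acidic protein genes Slpi and Wfdc12, the peptidoglycan recognition protein Pglyrp1 and the lectin Reg3g. RNA was sequenced from whole skin of CD1 mice, an outbred stock, and the labels name no transgene and no treatment besides the wound, its anaesthetic and its analgesic. The mice were 7 weeks old and in the resting (telogen) phase of the hair cycle. Each of 12 mice was wounded at a single site, with 4 mice each for abdomen, back and cheek, and gave 1 library from a wound collected at day 3 and 1 library from adjacent unwounded skin, so there were 6 groups of 4 libraries. A cheek mouse received 1 wound and an abdomen or back mouse received 2, each made with a 2 mm punch. Values are FPKM, fragments mapped to a transcript divided by its length and by all mapped fragments of the library. This per-length scale is meant for setting levels of different genes side by side. Whether it does so evenly for short and long transcripts was not tested, and the ranks and shares between genes given below rest on it. FPKM values carry no counts, so sequencing depth and counting error are unknown.

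Antimicrobial peptides are a chemical barrier of the epidermis. Beta-defensins are short cationic peptides, held together by disulphide bonds, that damage microbial membranes, and some are made constantly while others are induced by microbes, cytokines or injury. Slpi, the secretory leukocyte protease inhibitor, blocks neutrophil elastase and has antibacterial activity of its own, and Wfdc12 carries the same kind of whey acidic protein domain. Pglyrp1 binds bacterial cell walls and is stored in neutrophil granules, and Reg3g is a C-type lectin that binds the cell wall of Gram-positive bacteria.

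The genes lie in a few neighbourhoods of the genome (positions from RefSeq and strands from GENCODE, on GRCm38.p6). Wfdc12 (chr2:164189231-164190558) and Slpi (chr2:164354070-164356507) lie on the minus strand within 167.3 kb of the whey acidic protein cluster. Defb14 (chr8:19160244-19195309), Defb4 (chr8:19198704-19201547), Defb6 (chr8:19225478-19228209) and Defb3 (chr8:19293361-19295339) lie on the plus strand within 135.1 kb, and Defb1 (chr8:21776555-21795185) lies apart from them on the same chromosome. Reg3g is at chr6:78466269-78468874 (minus strand) and Pglyrp1 at chr7:18884690-18890438 (plus strand). In the annotated transcripts, no stretch of 50 bases of Defb1, Defb3, Defb6, Defb14, Slpi, Wfdc12 or Reg3g occurred in a transcript of another gene. Defb4 shared 5.68% of its stretches with Defb8, and Pglyrp1 shared 2.67% with transcripts of many genes, so reads of these parts could be counted for another gene.

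The 250 bases before the RefSeq transcription start (GRCm38.p6) were on hand for 6 of the 9 genes. For 5 of the 6, sequence around this start was found in a GENCODE transcript of the gene, a match that does not require the same start. Of the 6 windows, 4 are printed because the results below turn on them. Slpi and Wfdc12 are the genes called higher in wounds at all 3 sites, and Defb6 and Defb3 are neighbours with very different levels. Each sequence runs 5′ to 3′ on the strand of its gene and ends at the base before the start. Capitals mark matches on either strand to TTGCNNAA, the letters of a C/EBP site, or to GGG and TTCC spaced by 3 bases, the letters of an NF-kB site.
Slpi, chr2:164356508-164356757, minus strand: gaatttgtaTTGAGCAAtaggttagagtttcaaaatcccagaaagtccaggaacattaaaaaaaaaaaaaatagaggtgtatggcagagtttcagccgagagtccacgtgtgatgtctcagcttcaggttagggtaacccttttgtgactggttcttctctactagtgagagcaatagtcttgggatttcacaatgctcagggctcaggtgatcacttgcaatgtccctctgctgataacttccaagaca
Wfdc12, chr2:164190559-164190808, minus strand: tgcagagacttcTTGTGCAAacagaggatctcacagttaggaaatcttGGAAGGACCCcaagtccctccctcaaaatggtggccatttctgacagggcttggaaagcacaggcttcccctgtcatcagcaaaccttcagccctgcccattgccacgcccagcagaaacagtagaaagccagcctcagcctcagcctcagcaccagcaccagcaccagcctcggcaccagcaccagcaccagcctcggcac
Defb6, chr8:19225228-19225477, plus strand: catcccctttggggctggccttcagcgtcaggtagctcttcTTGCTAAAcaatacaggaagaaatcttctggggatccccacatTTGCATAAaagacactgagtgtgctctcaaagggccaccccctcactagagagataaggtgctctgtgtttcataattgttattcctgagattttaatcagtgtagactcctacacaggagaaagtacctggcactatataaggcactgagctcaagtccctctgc
Defb3, chr8:19293111-19293360, plus strand: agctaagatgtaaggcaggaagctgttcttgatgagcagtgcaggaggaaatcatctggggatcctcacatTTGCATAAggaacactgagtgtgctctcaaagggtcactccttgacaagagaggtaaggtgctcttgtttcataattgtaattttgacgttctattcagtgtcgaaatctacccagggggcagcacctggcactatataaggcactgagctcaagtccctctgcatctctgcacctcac

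Letters of a C/EBP site were in the windows of Slpi, Wfdc12, Defb6 and Defb3 and not in those of Pglyrp1 and Reg3g, and 9.56% of the 32851 RefSeq windows of this length held them. Those of an NF-kB site were in the windows of Wfdc12 and Pglyrp1, against 4.65% of all windows. TATAAA, searched on the coding strand, was in the window of Reg3g, 27 bases before the start, against 7.59% of all windows. The printed windows of Defb6 and Defb3 hold the similar letters TATATAAG, which this exact search does not match. TGANTCA, an AP-1 site, and TTCNNNGAA, a STAT site, were in none of the 6 windows and in 6.75% and 7.02% of all windows. The windows of Defb6 and Defb3 aligned over 235 bases with 81.7% identity. The other 14 pairs of the 6 windows, aligned in the same way, had between 53.5% and 68.4%. Matched letters describe the window and are not evidence of binding.

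A single unwounded library stood apart from the telogen label. Cheek mouse 4 held a summed 4769 FPKM of 7 keratins of the growing hair follicle, where other libraries held between 0.26 and 74.6 FPKM. It held the 1 value of Defb4 above 0 in unwounded skin and was within the range of the other unwounded cheek libraries for Defb6, Defb14, Wfdc12 and Pglyrp1. It was the highest unwounded cheek library for Defb1 (29.32 FPKM, next 24.55), Slpi (1.76 FPKM, next 1.5) and Defb3 (0.5 FPKM, next 0.49). Without this mouse, Slpi and Wfdc12 were still called in cheek wounds and Defb3 was not, by the test described below. Skeletal muscle markers also varied, from 480 to 21700 FPKM in unwounded libraries and from 1664 to 6356 FPKM in wounds, and r between their sum and a member's deviations ran from -0.389 to -0.020. Summed FPKM per library lay between 490830 and 608888.

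The genes differed widely in level in unwounded skin. Defb6, a beta-defensin of keratinocytes, averaged 1345 FPKM over the 12 unwounded libraries and ranked 46 of 18368 genes. Its level made up between 94.9% and 97.1% of the summed FPKM of the 9 genes in every unwounded library and between 67.0% and 93.7% in the wound libraries. Defb1 (20.64 to 43.32 FPKM) and Defb14 (4.34 to 20.05 FPKM) were at intermediate levels. Pglyrp1, Wfdc12 and Slpi were low, at means of 3.64, 2.80 and 1.40 FPKM, and Defb3 and Defb4 were at or near 0, at 0.24 and 0.042 FPKM. Reg3g was listed at 0 in all 12 unwounded libraries. In the 12 wound libraries the order behind Defb6 (928 FPKM, rank 107) was Slpi (69.6 FPKM), Defb1 (47.8 FPKM), Wfdc12 (44.7 FPKM) and Defb14 (23.0 FPKM). Slpi moved from rank 12514 to rank 1202 and Wfdc12 from rank 11127 to rank 1962.

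**Figure D1:**
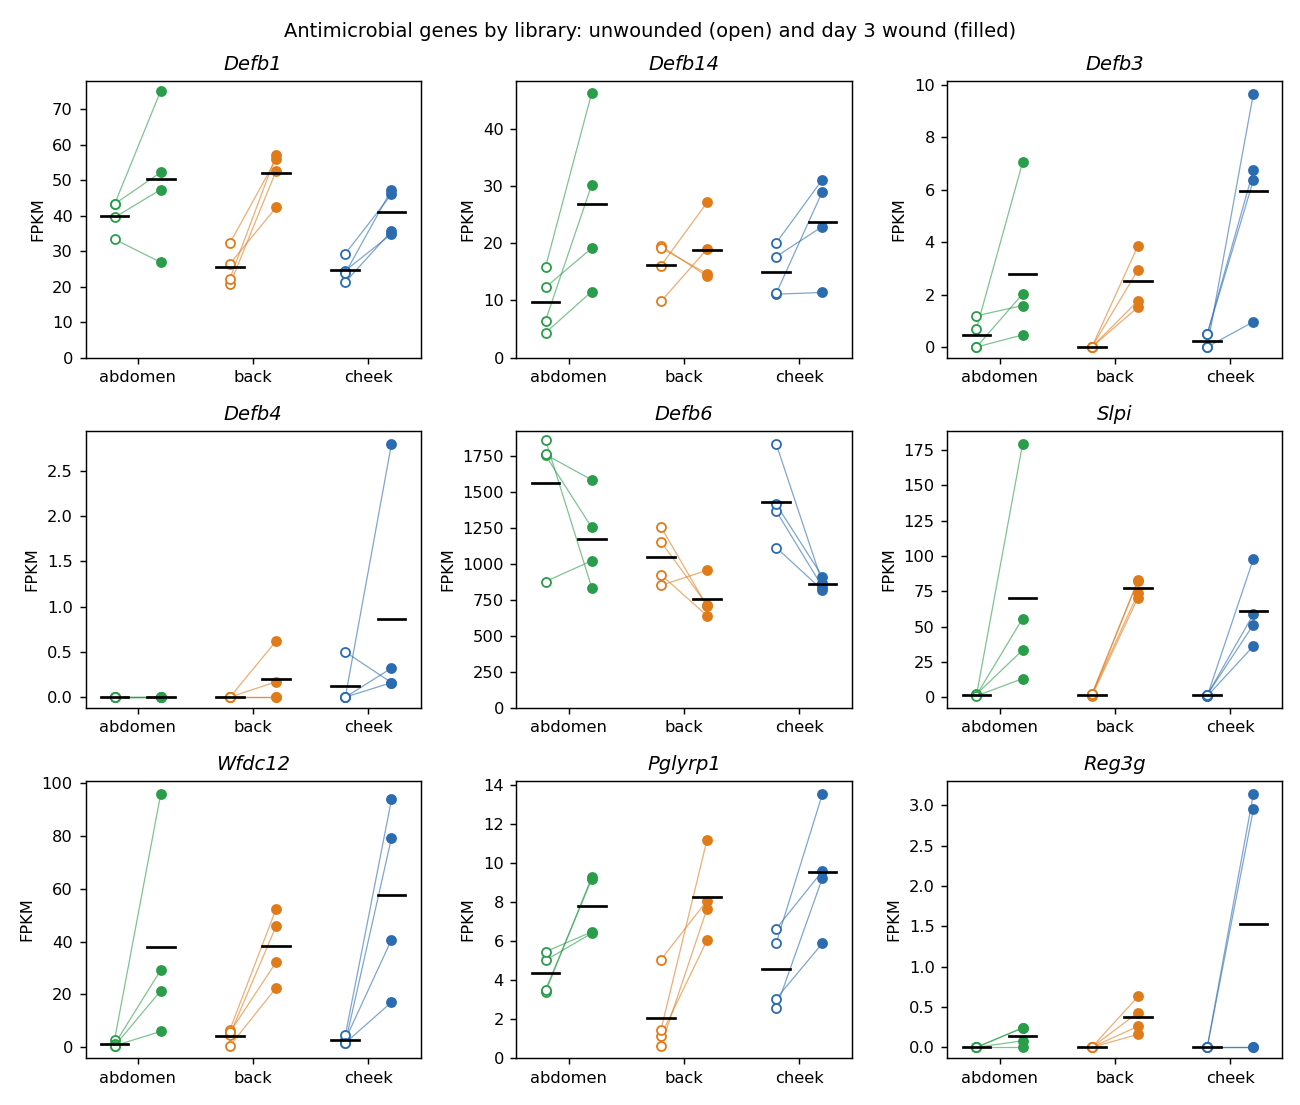
FPKM (linear axis, a separate scale for each gene) of the 9 antimicrobial genes in 24 libraries, with open points for unwounded skin, filled points for day 3 wounds, lines joining the libraries of a mouse and black bars for group means (n = 4). Slpi and Wfdc12 rose in every mouse at every site, whereas Defb6 was at least 849.57 FPKM in all unwounded libraries and was lower in all 4 cheek wounds than in any unwounded cheek library.

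Wounding raised 2 of the 7 tested members in abdomen, 5 in back and 3 in cheek (limma with a term for each mouse, adjusted p under 0.001 over 14423 genes), and lowered none at that threshold. Over all tested genes, 4.96%, 14.4% and 8.69% passed it in either direction, with 3.92%, 10% and 6.5% higher and 1.04%, 4.37% and 2.19% lower in wounds. Slpi and Wfdc12 passed at all 3 sites, Defb3 in back and cheek, and Defb1 and Pglyrp1 in back. Defb4 and Reg3g did not reach 0.5 FPKM in 4 libraries and were not tested. The median log2 fold change of the 7 tested members reached 1.40, 2.03 and 1.04 in these sites, against -0.01, 0.07 and 0.01 over all tested genes. At an adjusted p under 0.05 the counts were 4, 5 and 6 of 7, and 32.9%, 45.9% and 36.6% of all tested genes passed. All log2 fold changes are differences of log2(FPKM + 0.5), which understate the change of low genes. In whole tissue, a change in the number of cells that make a transcript and a change in transcript per cell cannot be told apart.

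Slpi had the largest wound effect of the 7 tested members at every site on the log2(FPKM + 0.5) scale. In abdomen it was 1.39, 1.44, 2.07 and 0.87 FPKM in the unwounded skin of mice 1 to 4 and 179.39, 55.67, 33.33 and 13.1 FPKM in their wounds. Back values were 1.47, 0.76, 2.02 and 2.08 FPKM unwounded and 82.26, 70.44, 83.05 and 73.54 FPKM in wounds. In cheek the unwounded libraries held 1.5, 0.74, 0.72 and 1.76 FPKM and the wounds 58.75, 36.16, 97.9 and 51.31 FPKM. The lowest wound library, abdomen mouse 4, was above the highest unwounded library of any site, and the spread between wounds was widest in abdomen (SD 74.7 FPKM, n = 4) and narrowest in back (SD 6.29 FPKM, n = 4). Log2 fold changes were 4.61 ± 0.46 (SE), 5.28 ± 0.46 and 5.16 ± 0.46 in the same order of sites, with limma adjusted p of 7.68e-05, 1.29e-05 and 2.02e-05. The ratio of group means was 48.8, 48.9 and 51.7. With the 8 abdomen libraries fitted alone, the adjusted p was 0.0162 and the call was lost.

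Wfdc12 also rose at all 3 sites. Unwounded abdomen libraries held 2.9, 0.49, 1.13 and 0.58 FPKM and their wounds 95.97, 21.42, 29.25 and 5.99 FPKM. In back it was 0.58, 6.7, 4.83 and 5.72 FPKM before and 22.51, 52.44, 45.86 and 32.24 FPKM in wounds. Cheek skin held 1.62, 2.87, 4.54 and 1.67 FPKM and cheek wounds 17.08, 40.73, 93.86 and 79.31 FPKM. No wound library overlapped the unwounded libraries of its site, and abdomen mouse 1 was the highest and abdomen mouse 4 the lowest wound for both Wfdc12 and Slpi. Log2 fold changes were 4.02 ± 0.43 (SE), 3.20 ± 0.43 and 4.02 ± 0.43 in abdomen, back and cheek, with limma adjusted p of 0.000107, 0.000197 and 6.19e-05. The ratio of means was 29.9 in abdomen and 21.6 in cheek and 8.58 in back, where the unwounded level was 4.46 ± 2.70 FPKM (SD, n = 4). The abdomen call did not pass without abdomen mouse 3 (adjusted p 0.00101), nor did the back call without back mouse 1, 2 or 3 (adjusted p between 0.00110 and 0.00140) or without the mouse term (0.00160). With the 8 libraries of a site fitted alone, the adjusted p was 0.00574 in abdomen and 0.00204 in back.

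Few other genes near them were tested. Of 8 further genes in the table within 50 kb of the span from Wfdc12 to Slpi, 3 were tested (Stk4, Wfdc5 and Matn4) and none passed 0.001 at any site. Over all tested genes, 3.92%, 10% and 6.5% were called higher in abdomen, back and cheek, so 3 genes without a call show little. Stk4 had a log2 fold change of 0.44 in back (limma adjusted p 0.00209). Wfdc5, a keratinocyte whey acidic protein gene, averaged 16.5 FPKM in unwounded skin and 22.9 FPKM in wounds. Its log2 fold changes were 0.38, 0.49 and 0.58 in abdomen, back and cheek (limma adjusted p 0.0466, 0.0103 and 0.00492). Of 15 other Wfdc genes in the table, 8 were tested. None was called higher, against the same 3.92%, 10% and 6.5% over all tested genes. Wfdc1 fell in back by 1.87 on the log2 scale (limma adjusted p 0.000936). Wfdc17, a gene of macrophages, had the largest mean rise of these genes, with log2 fold changes of 1.30, 1.38 and 1.19 and adjusted p of 0.00787, 0.00338 and 0.0100.

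Defb6 was the most abundant member and the one with lower values in wounds. Unwounded abdomen libraries held 1858.95, 1752.19, 1758.12 and 876.43 FPKM and their wounds 834.72, 1251.91, 1581.89 and 1020.01 FPKM. Back skin held 1255.94, 924.05, 1151.5 and 849.57 FPKM and back wounds 703.74, 639, 714.6 and 954.16 FPKM. In cheek it was 1364.27, 1111.56, 1830.16 and 1411.29 FPKM unwounded and 839.34, 816.43, 865.92 and 910.34 FPKM in wounds. The groups overlapped in abdomen and back, where 3 of 4 mice had a lower wound value, and did not overlap in cheek, where 4 of 4 did. The log2 fold change was -0.39 ± 0.20 (SE), -0.47 ± 0.20 and -0.71 ± 0.20, with limma adjusted p of 0.149, 0.0714 and 0.0149, so none passed 0.001 and the cheek value passed 0.05. The cheek value did not pass 0.05 without cheek mouse 3 (-0.59, adjusted p 0.0777), the abdomen value was -0.14 without abdomen mouse 1 (0.618), and the back value passed 0.05 without back mouse 4 (-0.68, 0.0229) or abdomen mouse 1 (0.0314). Settings other than the mice left out also moved the limma adjusted p of Defb6. Across them, abdomen reached 0.00724 at its lowest and 0.236 at its highest, with a log2 fold change as low as -0.61. For back these were 0.00325, 0.0943 and -0.66. The cheek adjusted p was 0.00121 at its lowest and 0.0221 at its highest. Whether abdomen and back passed 0.05 thus depended on the processing, and none passed 0.001 under any of these settings. Each of the other 6 tested members had a higher mean in wounds than in unwounded skin at every site.

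Defb1, a beta-defensin of many epithelia, rose in back wounds, with a ratio of means of 2.04. It was 32.35, 20.64, 22.32 and 26.49 FPKM in unwounded back and 55.97, 52.69, 57.1 and 42.36 FPKM in back wounds. Cheek libraries held 24.55, 21.3, 23.83 and 29.32 FPKM unwounded and 34.86, 35.69, 47.36 and 46.07 FPKM in wounds. In abdomen it was 43.27, 39.54, 43.32 and 33.38 FPKM before and 75.28, 47.41, 52.27 and 26.89 FPKM in wounds. The groups did not overlap in back and cheek, while in abdomen mouse 4 was lower in its wound. The log2 fold change was 1.03 ± 0.16 (SE) in back (limma adjusted p 0.000236), 0.71 ± 0.16 in cheek (0.00377) and 0.25 ± 0.16 in abdomen (0.232). The back call did not pass 0.001 under quantile normalization (adjusted p 0.00104) or without back mouse 2 (0.00246) or back mouse 3 (0.00230).

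Defb14, a beta-defensin that also attracts leukocytes through the receptor Ccr6, had its largest wound effect in abdomen. There it was 15.85, 12.28, 6.48 and 4.34 FPKM in unwounded skin and 46.23, 19.12, 30.18 and 11.55 FPKM in wounds. Back values were 19.51, 19.16, 16.05 and 9.81 FPKM against 14.23, 14.66, 27.11 and 18.96 FPKM in wounds, and cheek values 17.67, 11.09, 20.05 and 11.24 FPKM against 22.91, 11.39, 31.12 and 29.02 FPKM. It was higher in the wound in 4 of 4 mice in abdomen and cheek and in 2 of 4 in back, and the groups overlapped at each site. The log2 fold change was 1.40 ± 0.29 (SE) in abdomen (limma adjusted p 0.00418), 0.21 ± 0.29 in back (0.578) and 0.59 ± 0.29 in cheek (0.129), so none passed 0.001. The back value was -0.03 without back mouse 4.

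Defb3, an inducible beta-defensin, was 0 in every unwounded back library and 1.52, 1.76, 3.86 and 2.94 FPKM in back wounds. Cheek skin held 0, 0, 0.49 and 0.5 FPKM and cheek wounds 0.96, 9.65, 6.36 and 6.73 FPKM. In abdomen it was 0.7, 1.19, 0 and 0 FPKM unwounded and 7.04, 1.58, 0.46 and 2.02 FPKM in wounds. All 12 wounds were above 0, and 8 of the 12 unwounded libraries were at 0. On the log2(FPKM + 0.5) scale the difference was 2.52 ± 0.44 (SE) in back (limma adjusted p 0.000774), 2.88 ± 0.44 in cheek (0.000472) and 1.56 ± 0.44 in abdomen (0.0183). Its size depends on the pseudocount, being 1.76 in back with 1 FPKM added (adjusted p 0.00301), and no fold is given against the back group at 0. The back call was also lost without the mouse term (0.00178) and without any 1 of the 4 back mice, abdomen mouse 3 or 4 or cheek mouse 3 or 4 (0.00104 to 0.00600). The cheek call was lost without cheek mouse 2, 3 or 4 or back mouse 2 (adjusted p at most 0.00293) and with the 8 cheek libraries alone (0.00492).

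Defb4, another inducible beta-defensin, was listed at 0 in all 8 abdomen libraries. It was 0 in the 4 unwounded back libraries and 0, 0.17, 0.62 and 0 FPKM in back wounds. Cheek skin held 0, 0, 0 and 0.5 FPKM and cheek wounds 0.32, 0.16, 2.8 and 0.16 FPKM. The highest value, in cheek mouse 3, stood apart from the other 3 cheek wounds. Reg3g values in wounds were 0.24, 0.24, 0 and 0.08 FPKM for abdomen, 0.43, 0.26, 0.63 and 0.16 FPKM for back and 0, 0, 3.14 and 2.95 FPKM for cheek. It was above 0 in 9 of 12 wounds, with cheek mice 3 and 4 highest and cheek mice 1 and 2 at 0. Low values above 0 lay within 0.2 steps of whole multiples of 0.16 FPKM for Defb4, 0.085 FPKM for Reg3g and 0.23 FPKM for Defb3 (6 values each). Each step was the largest that fitted among many tried, and such a search can find a fit by chance. Values of this size may rest on 1 or a few fragments, which cannot be settled without counts.

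**Figure D2:**
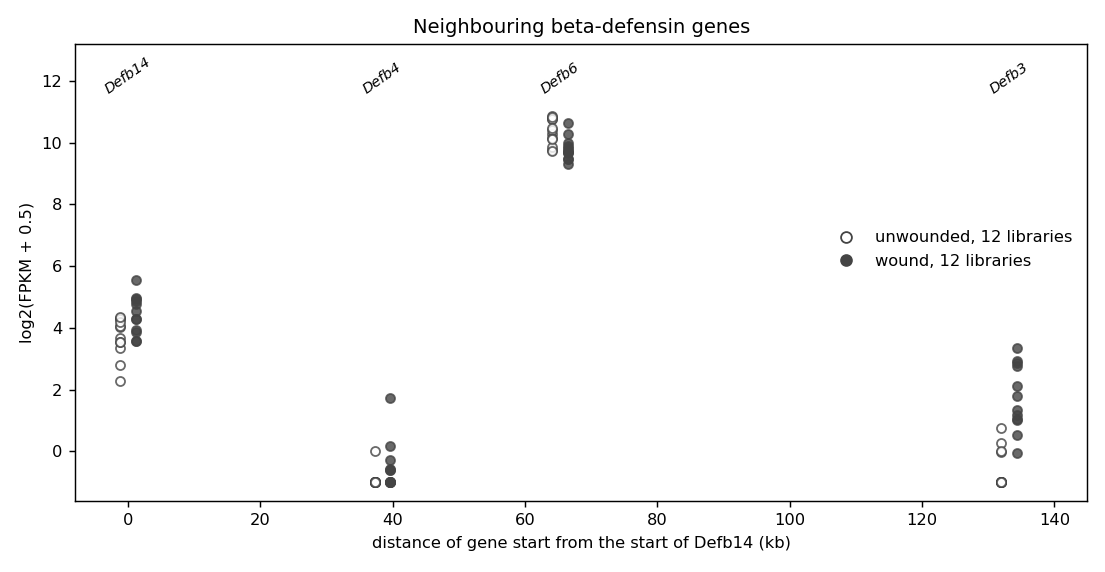
Levels of the 4 neighbouring beta-defensin genes as log2(FPKM + 0.5) against the distance of their starts from that of Defb14 in kb, with 12 open points for unwounded skin and 12 filled points for wounds per gene. Within 135.1 kb, Defb6 lay between 639 and 1859 FPKM in all libraries, Defb14 between 4.34 and 46.2 FPKM, and Defb4 and Defb3 at or below 2.8 and 9.65 FPKM.

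Defb6 and Defb3, whose upstream windows were alike in 81.7% of aligned bases, differed in level. Whether their wound effects differ from each other, and any part of the windows in this, was not tested. Of the 3 other genes of the table within this neighbourhood and 50 kb to each side (Defb34, Spag11b and Spag11a), none reached 0.5 FPKM in any library. Of 15 other beta-defensin genes in the table, 2 were tested (Defb25 and Defb8) and none was called, and their means stayed below 1 FPKM in each group. Over all tested genes, 4.96%, 14.4% and 8.69% were called in abdomen, back and cheek, so 2 genes without a call show little.

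Pglyrp1 was higher in the wound in all 12 mice. In back it was 0.6, 1.14, 5.03 and 1.43 FPKM unwounded and 7.65, 6.03, 8.06 and 11.18 FPKM in wounds, with mouse 3 apart from the other unwounded libraries. Abdomen libraries held 5, 5.44, 3.37 and 3.49 FPKM before and 6.38, 6.45, 9.25 and 9.14 FPKM in wounds. Cheek libraries held 6.62, 2.56, 5.9 and 3.04 FPKM before and 9.57, 9.22, 13.52 and 5.87 FPKM in wounds, which overlapped. The log2 fold change was 2.03 ± 0.33 (SE) in back (limma adjusted p 0.000520), 0.79 ± 0.33 in abdomen (0.0854) and 1.04 ± 0.33 in cheek (0.0287). The back call did not pass without back mouse 1, 2 or 4 (0.00354 to 0.00414), without cheek mouse 3 or 4 (0.00102 and 0.00101) or with the 8 back libraries alone (0.0120). Neutrophil and macrophage markers were also higher in wounds as summed levels. Over all tested genes, 3.92%, 10% and 6.5% were called higher in abdomen, back and cheek. Of 10 neutrophil genes, 9 were tested and 3, 4 and 4 were called higher in abdomen, back and cheek, and their summed level was 14.4 to 45.2 FPKM in unwounded libraries and 43.2 to 103 FPKM in wounds. Csf3r, the receptor of the neutrophil growth factor G-CSF, rose by 2.65, 3.08 and 3.77 on the log2 scale (limma adjusted p at most 1.33e-05), and Retnlg rose by 3.85 in back and 3.82 in cheek (5.94e-05 and 8.81e-05) with 2.67 in abdomen (0.00136). Elane was at most 0.5 FPKM in any library, and Mpo, which did not pass 0.001 at any site, averaged 31.6 FPKM in unwounded abdomen and 16.5 FPKM in abdomen wounds. Its log2 fold changes were -0.96, -0.74 and -1.70 in abdomen, back and cheek (limma adjusted p 0.0259, 0.0562 and 0.00103). The neutrophil sum thus joins Mpo, lower in wounds, to genes that rose. Of 7 macrophage genes, all tested, 3, 5 and 4 were called higher, and their summed level was 386 to 796 FPKM in unwounded libraries and 769 to 1295 FPKM in wounds. Ms4a7 rose by 2.00, 2.26 and 2.41 and Cd68 by 1.46, 1.77 and 1.79 (limma adjusted p at most 6.5e-05). The r of Pglyrp1 with the neutrophil sum was 0.761 over 24 libraries and 0.229 in deviations from the group means, and with the macrophage sum 0.723 and 0.566. The part of these cells in the Pglyrp1 level was not tested. Of the other peptidoglycan recognition proteins, Pglyrp4 rose in cheek by 0.90 on the log2 scale (limma adjusted p 3.38e-05), and Pglyrp3 had values of 0.50, 0.98 and 0.94 in abdomen, back and cheek (0.152, 0.00837 and 0.0136). Reg1, the 1 tested Reg gene, had log2 fold changes of 1.09, 1.89 and 2.24 and passed 0.001 at no site.

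**Figure D3:**
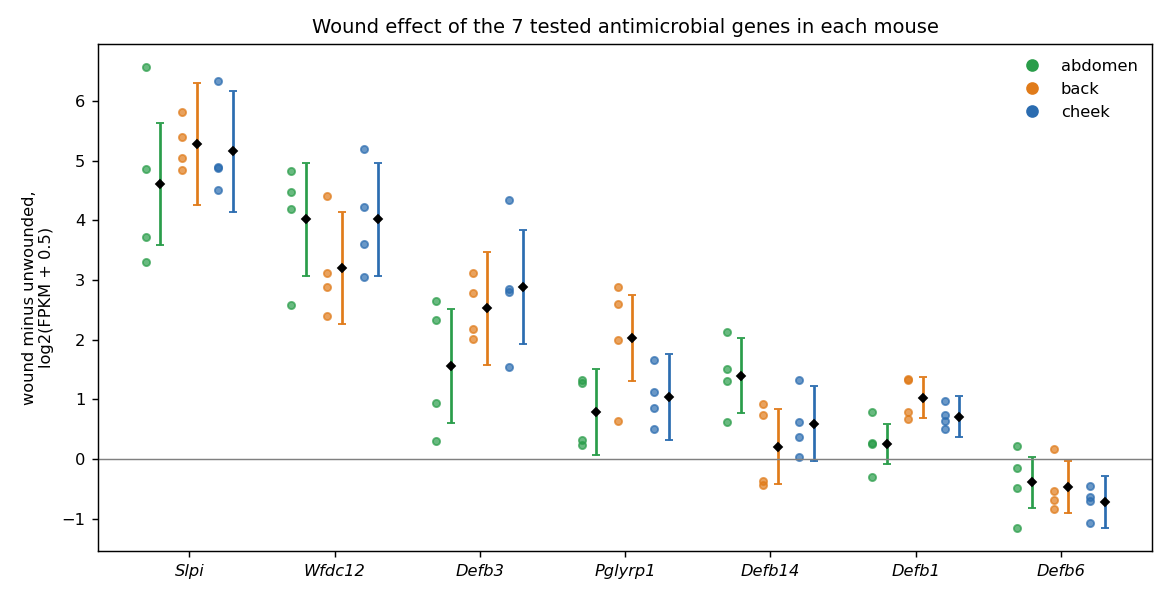
Difference between the wound and the unwounded library of each mouse on the log2(FPKM + 0.5) scale (coloured points) for the 7 tested genes, with the limma estimate (black diamond) and its 95% confidence interval (bar) at each site. The lowest bound for Slpi and Wfdc12 is 2.26 (Wfdc12 in back), and the highest bound for Defb6 is 0.04 (abdomen).

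A call at 1 site and none at another does not show that the sites differ, so the differences between wound effects were tested directly. No member passed an adjusted p of 0.05 in the limma F test across the 3 sites, and 3 of 14423 genes did (0.0208%). At an unadjusted p under 0.05 there were 3 members, Defb1 (0.0129), Defb14 (0.0370) and Pglyrp1 (0.0486), with adjusted p of 0.270, 0.351 and 0.384. The share of all genes at that unadjusted threshold was not worked out. Counts of members at it, here and below, therefore cannot be set against all genes. Pairwise limma contrasts called 0 members, against 0%, 0.00693% and 0.0277% of all genes for back against abdomen, cheek against abdomen and cheek against back, and 3, 0 and 0 members had an unadjusted p under 0.05. Back exceeded abdomen by 0.78 (95% confidence interval 0.30 to 1.25) for Defb1 and by 1.24 (0.22 to 2.26) for Pglyrp1, and was below it by 1.19 for Defb14 (-2.08 to -0.30). Without abdomen mouse 1, the Defb1 difference was 0.96 with an adjusted p of 0.0284. For Slpi the interval of cheek minus back ran from -1.56 to 1.33, so differences of more than 2-fold in either direction remain possible.

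Between sites of unwounded skin, Defb1 was the 1 member called of 6 tested. The abdomen mean was 39.9 ± 4.68 FPKM (SD, n = 4), the back mean 25.5 ± 5.22 FPKM and the cheek mean 24.8 ± 3.35 FPKM. The log2 difference from abdomen was -0.65 ± 0.15 (SE) for back (limma adjusted p 0.0354) and -0.68 ± 0.15 for cheek (0.0331), and no abdomen library overlapped either site. Of all 13956 tested genes, 2.67% and 2.57% passed, with 2.14% and 1.23% lower than in abdomen. The lowest abdomen library (33.38 FPKM) and the highest back library (32.35 FPKM) were close. The median gene was lower in back by -0.12, and after median-ratio scaling the back difference was -0.52 with an adjusted p of 0.0874. The back call was lost without abdomen mouse 1, 2 or 3 or back mouse 2, 3 or 4 (0.0583 to 0.113) with all 24 libraries fitted as 6 groups (0.0516) and with the mouse number as a term (0.0548). The cheek call was lost without abdomen mouse 1, 2 or 3 or cheek mouse 1, 2 or 3 (0.0566 to 0.117).

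No other member was called between unwounded sites. For Defb6, back minus abdomen was -0.54 (adjusted p 0.214), and without abdomen mouse 4, the low library, it was -0.79 (0.0310). Pglyrp1 was -1.18 in back against abdomen (0.163) and passed without back mouse 3 (-1.64, 0.0321) and with all 24 libraries fitted as 6 groups (0.0483). Wfdc12 was 1.36 in back against abdomen (0.223) and, without back mouse 1, 1.99 (0.0404). Cheek against back called 0 members, with 1 at an unadjusted p under 0.05 and 1.05% of all genes called, and 1 member, Pglyrp1, was called without back mouse 3 (1.64, adjusted p 0.0459).

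Among wounds the 3 pairs of sites called 0 of 7 members, against 1.27%, 10.8% and 2.5% of 14023 genes for back against abdomen, cheek against abdomen and cheek against back. Unadjusted p was under 0.05 for 1, 1 and 0 members, in both cases Defb6. It was lower in back than in abdomen wounds by -0.61 (limma adjusted p 0.102) and in cheek than in abdomen wounds by -0.41 (0.130). Without abdomen mouse 1 these were -0.76 (0.0391) and -0.56 (0.0416), and under quantile normalization the first was -0.63 (0.0341).

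Members were set beside other genes by Pearson's r of log2(FPKM + 0.5) over the 24 libraries, a description in which the step from unwounded to wound is shared by all points. Slpi was most like Gm5416 (r 0.983), Krt16 (0.981), a keratin of activated keratinocytes, and Gm5483 (0.981). Wfdc12 was most like Akr1b8 (0.923), Cxcl5 (0.920), a neutrophil attractant, and Fam43a (0.919). Among the genes most like Defb1 were Dstn (0.915) and Perp (0.912), a gene of desmosomes, and Defb3 was most like Cdhr1 (0.920), Rnf19b (0.911) and Spred3 (0.908). Pglyrp1 was most like Hcst (0.875), an adaptor of lymphoid and myeloid cells, Tnfsf14 (0.871) and Mob3a (0.865). Defb6 was most like Pim3 (0.899), Cyb5a (0.892) and Bicdl1 (0.891), and Defb14 like Grpel1 (0.787), Sys1 (0.773) and AU022252 (0.761). For deviations from the 6 group means, which remove the wound step, the closest genes were Cemip for Slpi (0.872), Cwh43 for Wfdc12 (0.784), Perp for Defb1 (0.895), Ckap4 for Defb3 (0.746), Hcst for Pglyrp1 (0.811), Chmp2a for Defb6 (0.925) and Pgs1 for Defb14 (0.798). Between members, Slpi and Wfdc12 had r 0.903 over 24 libraries and 0.498 in deviations, and Slpi and Defb1 had 0.772 and 0.814.

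Wound-edge keratins moved with some of these genes. Of Krt6a, Krt6b, Krt16 and Krt17, keratins switched on at the wound edge, 3, 4 and 3 were called higher in abdomen, back and cheek. Over all tested genes, 3.92%, 10% and 6.5% were. The summed level of these 4 keratins was 387 to 1285 FPKM in unwounded libraries and 2107 to 14682 FPKM in wounds. The r of this sum with Slpi was 0.973 over 24 libraries and 0.765 in deviations, with Wfdc12 0.897 and 0.616, and with Defb1 0.800 and 0.862. For Defb3 it was 0.857 and 0.472, for Defb14 0.573 and 0.528, and for Pglyrp1 0.702 and -0.162. Abdomen wounds spanned the whole range, from 14682 FPKM in mouse 1 through 7399 and 6351 FPKM in mice 2 and 3 to 2107 FPKM in mouse 4. The same 2 end libraries were the highest and lowest for Slpi, Wfdc12 and Defb1. The summed level of 9 general epidermal markers was 6550 to 11727 FPKM in unwounded libraries and 11047 to 18907 FPKM in wounds. These 9 did not move together. At each site 2 were called higher, and their median log2 fold changes were 0.22, 0.31 and 0.42 in abdomen, back and cheek. Krt14 (1.54, 1.99 and 1.94) and Krt1 (1.47, 1.45 and 1.90) rose most. Krt15 had values of -1.03, -0.77 and -0.83 and was called lower in abdomen (limma adjusted p 0.000494). How much the amount of epidermis or of wound edge in each punch sets the members' levels was not tested. Defb6 had an r of -0.523 with the wound-edge keratins, which was 0.068 in deviations, and of 0.751 with 7 sebaceous gland markers, which was 0.482 in deviations.

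**Figure D4:**
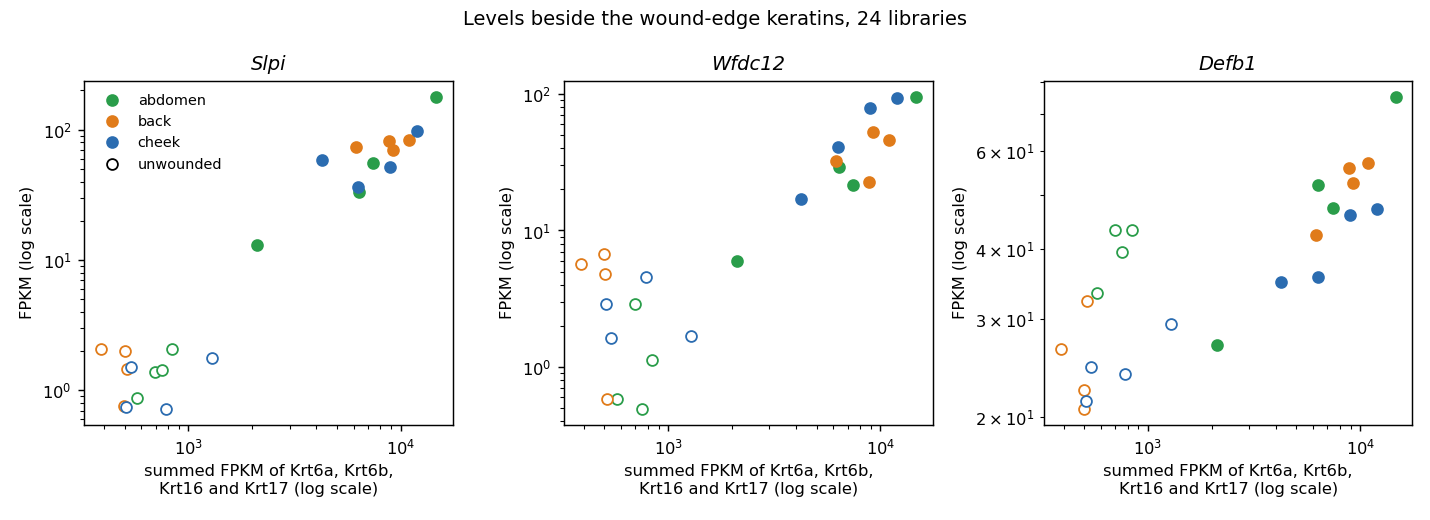
FPKM of Slpi, Wfdc12 and Defb1 against the summed FPKM of 4 wound-edge keratins in 24 libraries, both axes on a log scale, with open points for unwounded skin and filled points for wounds. Abdomen mouse 4 has the lowest keratin sum of the wounds (2107 FPKM) and the lowest level of all 3 genes among wounds, and abdomen mouse 1 the highest of each.

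Other antimicrobial proteins and the signals known to induce them were described from fixed lists. Over all tested genes, 3.92%, 10% and 6.5% were called higher in abdomen, back and cheek, with median log2 fold changes of -0.01, 0.07 and 0.01. These are the values beside which each list here and in the next paragraph stands. Of 12 tested other antimicrobial proteins of skin and leukocytes, 2, 6 and 5 were called higher in abdomen, back and cheek and none lower, with median log2 fold changes of 1.00, 1.43 and 0.99. S100a9 and S100a8, which form calprotectin, rose most, by 6.23, 6.45 and 7.54 and by 5.55, 7.17 and 6.19 in abdomen, back and cheek (limma adjusted p at most 6.06e-05), and Rnase4, a ribonuclease, had values of -0.53, -0.57 and -0.44 that did not pass 0.001. Of 11 tested inducing cytokines and growth factors, 4, 6 and 5 were called higher and none lower, with medians of 0.89, 1.65 and 1.93. Il1b rose by 5.51, 7.11 and 6.39 and Osm by 3.38, 4.56 and 4.34 (adjusted p at most 2.86e-05), whereas Il20 had values of -0.89, -0.04 and -0.45 that did not pass 0.001. The cytokines Il17a, Il17c, Il17f and Il22, known inducers of beta-defensins, were at most 0.36 FPKM in any library and were not tested.

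All 25 listed receptors and signal transducers of that induction were tested, and 6, 11 and 10 were called higher and none lower, with medians of 0.17, 0.50 and 0.50. Socs3, a feedback inhibitor of cytokine signalling, rose by 1.12, 1.75 and 1.34 and Tlr2, a receptor for bacterial lipoproteins, by 0.90, 1.43 and 1.37 (adjusted p at most 0.000784), while Egfr had values of -0.50, -0.23 and -0.35. Of 4 tested receptors reported for proteins of the list, 1, 3 and 2 were called higher. Trem1, a receptor reported for Pglyrp1, rose by 4.14, 4.50 and 4.96 (adjusted p at most 4.74e-06), and Ccr2, reported for beta-defensins, by 2.09 in back and 1.86 in cheek (7.26e-05 and 0.000236) with 1.26 in abdomen (0.00364). Of 8 epidermal proteases and inhibitors, 1, 3 and 2 were called higher, against 3.92%, 10% and 6.5% of all tested genes. Klk8, a kallikrein of the upper epidermis, rose by 1.60 in back and 1.53 in cheek (0.000122 and 0.000245) with 1.29 in abdomen (0.00118). Klk14 had values of 0.86, 1.42 and 1.48 and St14 of -0.09, 0.01 and -0.42, none past 0.001.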

How the data were processed

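RNA of 24 whole-skin libraries from 12 mice was sequenced, and, per the labels and the study's methods, the authors aligned the reads to mm10 with HISAT2 and Bowtie2 2.2.5, quantified genes with RSEM 1.2.12 and deposited FPKM values for 18368 genes, rounded to 2 decimals. FPKM divide by length and by the library's mapped fragments, so they are relative within a library. No counts were given and depth is unknown. A second deposited table with log2 fold changes and adjusted p-values of 9 comparisons made by the authors with DESeq2 was not used.

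Values were analysed as log2(FPKM + 0.5) in limma 3.58.1 (R 4.3.3, statmod 1.5.0, trend and robust moderation) over genes with at least 0.5 FPKM in 4 or more libraries of the fit. Wound effects were fitted over the 24 libraries together, with each mouse as a term (call at adjusted p under 0.001), site comparisons from the 12 unwounded or the 12 wound libraries (call at 0.05), with Benjamini-Hochberg adjustment over all tested genes and two-sided tests. The 2 libraries of a mouse came from the same animal, and their deviations from the group means had mean correlations of 0.322, 0.348 and 0.281 in abdomen, back and cheek (lowest pair -0.03). Between mice the means were -0.108, -0.116 and -0.0958. Centring on the group means largely fixes these values, so they are no separate baseline. The code was tested on simulated data with 200 changed genes.

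Members and lists were chosen with earlier results of these data known. Named genes were all members, the 3 tested genes most like each member over libraries and the 1 most like it in deviations, and, from each list described, the 2 genes with the largest mean rise and the 1 with the largest mean fall. A gene that the rule on likeness chose is not reported here. Elane, Stk4, Matn4, Defb34, Spag11a, Spag11b and the cytokines below the filter were named outside that rule, after their values were seen. RefSeq promoter entries and GENCODE transcripts on GRCm38.p6 gave sequences, RefSeq gene entries gave positions and GENCODE gave strands (Biopython 1.88, pandas 2.3.3). Alternatives were the pseudocount, filter, scaling, moderation, mouse term, libraries in the fit, threshold and leaving out each mouse.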

Additional observations from a re-analysis of the deposited data

Results flagged for a closer look

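In 7 of the 54 sets of 4 libraries (9 genes in 6 groups) every library was at 0, and in 1 only a single library was above 0, so that Dixon's criterion for a library far from the other 3 could not be missed there. That set was Defb4 in unwounded cheek, with 0.5 FPKM in mouse 4 and 0 in the other 3 libraries, and its mark carries no information beyond those values. Of the 46 remaining sets, 2 met the criterion, which chance alone meets in about 1 in 20 groups. Defb4 was 2.8 FPKM in the cheek wound of mouse 3, where the median of the others was 0.16 FPKM. Defb6 was 876.43 FPKM in unwounded abdomen of mouse 4, where the median of the others was 1758.12 FPKM. No wound effect of a member differed between sites by the limma contrasts over all genes.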

How the results depend on the processing

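Depth is unknown, so the counting error of low members (Defb3, Defb4, Reg3g) could not be separated from the spread between mice. With the 8 libraries of a site fitted alone, 0 members were called in abdomen wounds (2 with all libraries) and 3 in back wounds (5). In cheek wounds that fit lost the Defb3 call (limma adjusted p 0.00492). Without the mouse term, so with no replicate block, 3 were called in back. A threshold of 0.05 gave 4 in abdomen and 6 in cheek (3 at 0.001). Between unwounded back and abdomen (1 called), median-ratio scaling and the mouse number as a replicate block each gave 0. Each mouse gave 1 site, so these numbers do not pair animals: same-numbered libraries of 2 sites had mean correlations of deviations between -0.174 and 0.0179. Quantile normalization gave 1 call between back and abdomen wounds, where 0 were called. Of the 21 genes most like a member over the libraries by Pearson's r, 5 were also chosen by Spearman's rho.

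Leaving out each of the 12 mice in turn moved the counts as follows. Abdomen wounds gave 1 (without abdomen mouse 3) to 2 calls and back wounds 1 (without back mouse 2) to 5, with 2 without back mouse 1 or 3 and 3 without back mouse 4 or cheek mouse 3 or 4. In cheek wounds the Defb3 call was lost in 4 of the 12 fits (without cheek mouse 2, 3 or 4 or back mouse 2). The cheek calls of Slpi and Wfdc12 were kept in all of them. The difference of wound effects between back and abdomen gave 0 to 1 (without abdomen mouse 1). Unwounded back against abdomen gave 0 (without abdomen mouse 1, 2 or 3 or back mouse 2 or 4) to 2 (without abdomen mouse 4 or back mouse 1), unwounded cheek against abdomen 0 (without abdomen or cheek mouse 1, 2 or 3) to 1, and unwounded cheek against back 0 to 1 (without back mouse 3). Back and cheek wounds against abdomen wounds each gave 0 to 1 (without abdomen mouse 1). The Defb14 wound effect in back turned to -0.026 without back mouse 4 and was up to 0.43 without back mouse 1, and no other effect or difference given for a member changed sign under any alternative run. The causes were not tested.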
